A study of Rattus norvegicus with 4 samples.

Results

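The genes described are the insulin-like growth factor (IGF) family as it was measured in the rat ventral prostate: the ligands Igf1 and Igf2, the receptor Igf1r, and the binding proteins Igfbp2, Igfbp3, Igfbp4, Igfbp5, Igfbp6 and Igfbp7. Their probe sets were those that the array's annotation assigned to exactly 1 symbol from these 9 genes, which gave 21 of the 31099 probe sets on the array. All 9 genes were represented. Igfbp5 had 5 probe sets, Igf2 had 4, Igf1 had 3, and Igf1r, Igfbp3 and Igfbp6 had 2 each.

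PhIP-treated animals were 6-week-old males of the inbred F344 rat strain that were given PhIP, a heterocyclic amine carcinogen of cooked meat, at 300 mg/kg and killed 2 days later. Control rats were of the same sex, strain and age and received no PhIP; the labels name neither a vehicle nor the route of dosing. Each group had 4 rats, and RNA from 2 rats was mixed on each array, so that each group has 2 arrays (PhIP 1 and PhIP 2, control 1 and control 2) and each value is an average over a pool. Whole lobe RNA was used, so that fewer cells of a type and less RNA per cell cannot be told apart.

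IGF signalling works as a tissue circuit. IGF ligands, which in the prostate come largely from stromal cells, bind the receptor tyrosine kinase encoded by Igf1r, which promotes growth and survival of epithelial and stromal cells. The secreted binding proteins hold the ligands in the matrix or in the circulation and limit, prolong or redirect their access to the receptor, and several also act without a ligand. In the rat ventral prostate Igfbp5 is best known as a gene that goes up when androgen is withdrawn and the lobe regresses.

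Most probe sets of the family had lower signals in PhIP prostates than in control prostates, by modest amounts, and none passed the adjusted test. Signals were compared as log2(signal + 10), a scale that understates the change of dim genes, and probe sets whose mean on that scale lay above the 40th percentile of all probe sets were tested with limma's moderated test. Of the 21 probe sets, 17 passed this filter, with every gene represented, and 4 did not. All 17 had a negative difference of PhIP minus control (53.7% of all 18625 tested probe sets did), and in 15 of the 17 both PhIP arrays lay below both control arrays (26.0% of all tested), while none of the 17 had both above (19.8% of all tested). The median difference over the 17 was −0.39, against −0.03 over all tested probe sets. Without adjustment, 8 of the 17 were lower at a limma p under 0.05 (7.61% of all tested) and 0 were higher (5.36% of all tested); these 8 belong to Igf1, Igf1r, Igfbp2, Igfbp5 and Igfbp6. None of the 17 passed limma's adjusted p of 0.05, which 0.0268% of all tested probe sets did, and the lowest adjusted p in the family was 0.103. Several probe sets report on 1 gene, so these counts are not counts of independent genes. Over all 21 probe sets, including the 4 dim ones, 18 were lower and 3 higher (56.9% of all probe sets on the array were lower). In 16 of these 21 both PhIP arrays lay below both control arrays (25.4% of all probe sets on the array). In 1, the dim and untested Igf2 probe set 1371206_a_at, with signals of 13.4 or less, both lay above.

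**Figure D1:**
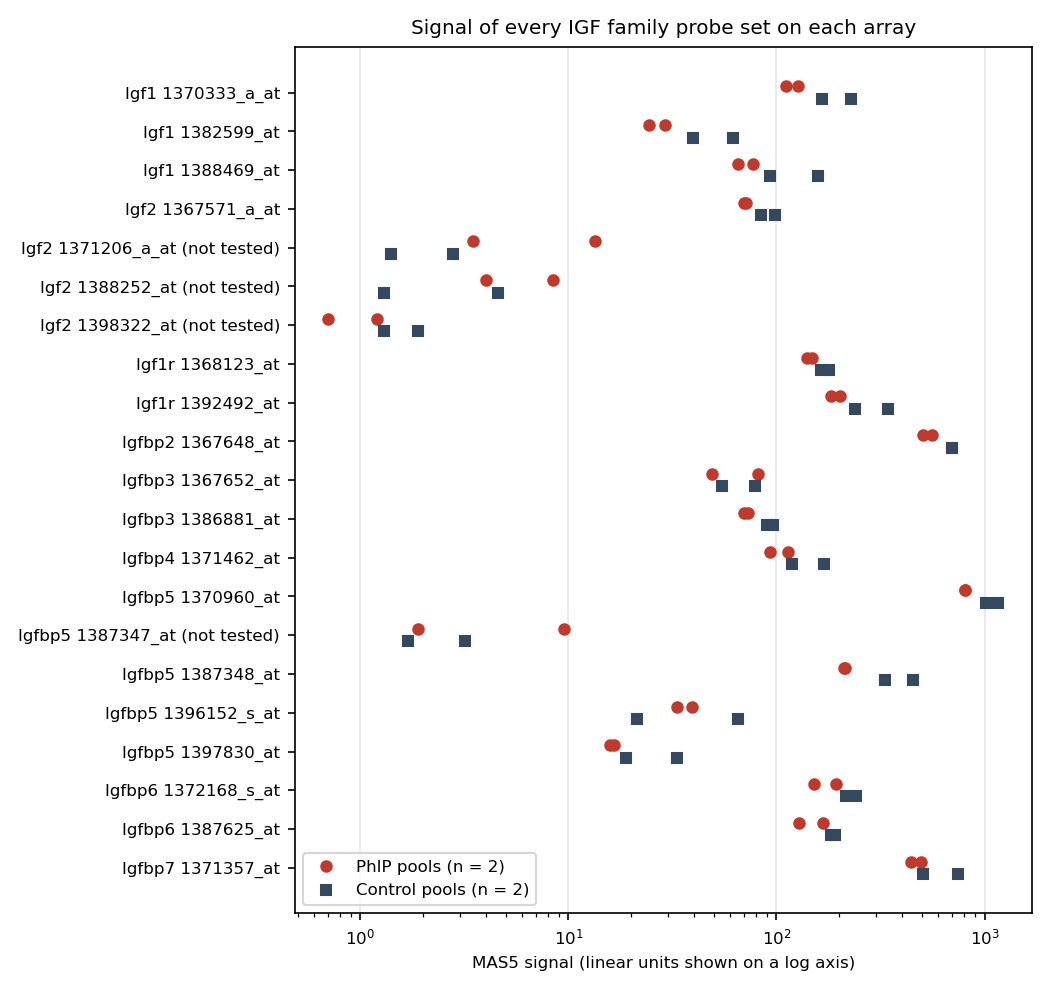
MAS5 signal (log axis) of each of the 21 probe sets, with the 2 PhIP pools as red circles above the 2 control pools as dark squares. In 15 of the 17 tested probe sets both PhIP pools lie to the left of both control pools; the 4 probe sets that were not tested have signals under 14 on every array.

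The starts of Igf1, Igfbp2 and Igfbp5 are shown because these genes supply 6 of the 8 probe sets at an unadjusted p under 0.05. Each sequence runs 5′ to 3′ from 250 bases before to 50 bases after a RefSeq transcript start on assembly GRCr8. Capitals mark any of 4 short motifs, each searched on both strands. These were TATAAA, the core of a TATA box, and CCAAT, the box named after it. The others were GGGCGG, known as a GC box, and TGTTCT, the half-site shared by androgen and glucocorticoid receptors. Igf1 lies on chromosome 7 at chr7:24172282-24172581, plus strand, around a start that is not the most upstream one of the gene. Igfbp2 lies at chr9:81864561-81864860, plus strand, and Igfbp5 at chr9:81914138-81914437, minus strand.
Igf1: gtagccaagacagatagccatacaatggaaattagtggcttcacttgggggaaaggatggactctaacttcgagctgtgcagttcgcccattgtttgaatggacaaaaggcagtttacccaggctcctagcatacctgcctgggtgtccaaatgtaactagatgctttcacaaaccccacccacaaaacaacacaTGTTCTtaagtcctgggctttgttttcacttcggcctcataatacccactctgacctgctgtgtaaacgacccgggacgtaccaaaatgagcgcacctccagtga
Igfbp2: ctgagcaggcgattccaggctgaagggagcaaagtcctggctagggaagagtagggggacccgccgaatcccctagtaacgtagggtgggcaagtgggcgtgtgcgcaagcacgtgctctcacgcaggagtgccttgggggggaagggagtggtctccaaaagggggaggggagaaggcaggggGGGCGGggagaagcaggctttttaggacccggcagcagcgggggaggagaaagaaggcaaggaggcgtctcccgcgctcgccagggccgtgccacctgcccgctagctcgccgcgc
Igfbp5: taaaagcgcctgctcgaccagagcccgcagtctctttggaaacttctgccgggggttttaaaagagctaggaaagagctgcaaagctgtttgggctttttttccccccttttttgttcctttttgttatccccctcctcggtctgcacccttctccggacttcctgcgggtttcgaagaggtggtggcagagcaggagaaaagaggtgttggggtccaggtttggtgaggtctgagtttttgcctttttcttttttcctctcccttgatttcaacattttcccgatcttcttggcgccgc
The Igf1 window held 1 TGTTCT, beginning 55 bases before the start, a motif found in 20.7% of all 33469 windows of this length. The Igfbp2 window held 1 GGGCGG, beginning 66 bases before the start, which 33.1% of all windows held. None of the 4 motifs was in the Igfbp5 window; TATAAA was in 14.2% of all windows and CCAAT in 37.5%. The windows also differ in base composition, with 48.3% G and C in Igf1, 66.7% in Igfbp2 and 50.7% in Igfbp5. Igfbp2 and Igfbp5 are neighbours in the genome, on opposite strands, with 9425 bases and 0 annotated genes between them.

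Igf1 encodes the main growth-promoting IGF, and its 3 probe sets gave nearly the same difference. Probe set 1370333_a_at, the brightest, had signals of 110.7 and 126.7 in the PhIP pools, against 229 and 164.6 in the control pools. The 2 PhIP pools were close to each other and below both control pools, which differed from each other more than the PhIP pools did. The log2 difference was −0.67 ± 0.18 (SE, n = 2 pools per group), a ratio of 0.63, with limma adjusted p = 0.211. Probe set 1388469_at had 65.6 and 77.4 in PhIP, against 159.1 and 93.1 in control (−0.70 ± 0.24, limma adjusted p = 0.299). Probe set 1382599_at had 24.3 and 29 in PhIP, against 62 and 39.9 in control (−0.71 ± 0.24, limma adjusted p = 0.294). In all 3 the groups did not overlap and control 1 was the highest array. The log2 value of 1382599_at minus that of 1370333_a_at was −1.82 and −1.81 in PhIP and −1.73 and −1.81 in control, and that of 1388469_at minus 1370333_a_at was −0.67 and −0.65 in PhIP and −0.50 and −0.76 in control. The first spacing was nearly the same on every array, and the second differed most between the control pools. With a control pool left out, here and for the genes below, the only replicate spread is that between the 2 PhIP pools and the lone control pool is assumed to vary like them, so these p-values do not show that a difference is stable. The size of the Igf1 difference depended on the control pool: for 1370333_a_at it was −0.44 without control 1 (limma adjusted p = 0.0753) and −0.90 without control 2 (adjusted p = 0.00681), and for 1388469_at it was −0.34 without control 1 (adjusted p = 0.246) and −1.06 without control 2 (adjusted p = 0.00736). Without PhIP 1 or PhIP 2, 1370333_a_at stood at −0.58 and −0.76 (limma adjusted p = 0.871 and 0.773).

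Igf2 encodes the fetal-type ligand, an imprinted gene. Its 1 tested probe set, 1367571_a_at, had signals of 71 and 69.9 in PhIP, against 84.4 and 98.3 in control. Both PhIP pools were below both control pools, and the log2 difference of −0.33 ± 0.16 had limma adjusted p = 0.437. The 3 other Igf2 probe sets, all designed from a single source sequence, were dim, at 0.7 to 13.4 in PhIP and 1.3 to 4.6 in control, and were not tested. Of these, 1371206_a_at was higher in both PhIP pools (3.5 and 13.4) than in the control pools (1.4 and 2.8), and 1398322_at lower (0.7 and 1.2, against 1.3 and 1.9); signals this low were not separated from background here.

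Igf1r encodes the receptor through which both ligands signal. Probe set 1392492_at had 183 and 202.7 in PhIP, against 237.6 and 342.9 in control, with no overlap and control 2 standing highest. Its log2 difference was −0.54 ± 0.18 (limma adjusted p = 0.284); it was −0.80 without control 1 (adjusted p = 0.00156) and −0.29 without control 2 (adjusted p = 0.286). Probe set 1368123_at had 139.7 and 148.4 in PhIP, against 163.7 and 178.6 in control. That is a smaller difference with no overlap either, −0.23 ± 0.13 (limma adjusted p = 0.502; 95% interval −0.55 to 0.08). The log2 value of 1368123_at minus that of 1392492_at was −0.37 and −0.43 in PhIP, against −0.51 and −0.90 in control, so the gap between the probe sets was widest in control 2.

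Igfbp5 encodes a matrix-bound binding protein, and its 5 probe sets did not give 1 answer. Probe set 1387348_at had 214.4 and 211.2 in PhIP, against 332.3 and 454.7 in control. The PhIP pools nearly coincided and both lay well below the control pools; the log2 difference of −0.84 ± 0.16, a ratio of 0.56, was the largest of the family (limma adjusted p = 0.103). The brightest probe set, 1370960_at, had 804.3 and 801.7 in PhIP, against 1166.4 and 1018.7 in control. Here too the PhIP pools nearly coincided below both control pools, with a log2 difference of −0.44 ± 0.10, a ratio of 0.74 (limma adjusted p = 0.145). With either control pool left out, where the spread comes from the nearly coinciding PhIP pools alone, both passed the adjusted threshold: 1387348_at stood at −1.06 without control 1 (adjusted p = 0.000134) and −0.62 without control 2 (adjusted p = 0.0140), and 1370960_at at −0.34 (adjusted p = 0.0172) and −0.53 (adjusted p = 0.00403). With either PhIP pool left out neither did, at adjusted p between 0.604 and 0.813.

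The remaining Igfbp5 probe sets were dimmer, and 2 of them, 1397830_at and 1396152_s_at, come from a single source sequence. Probe set 1397830_at had 16.5 and 15.9 in PhIP, against 33.1 and 18.9 in control, lower without overlap (−0.43 ± 0.27, limma adjusted p = 0.534); the difference was −0.14 without control 1 and −0.72 without control 2. Probe set 1396152_s_at, whose suffix marks probes shared by more than 1 transcript, had 39.3 and 33.4 in PhIP, against 65.1 and 21.3 in control. Its PhIP pools lay between the 2 control pools, and the log2 difference of −0.07 ± 0.38 (95% interval −0.95 to 0.81; limma adjusted p = 0.951) turned to 0.56 without control 1 and to small positive values under several other settings. Probe set 1387347_at was near the bottom of the scale, at 1.9 and 9.5 in PhIP and 1.7 and 3.2 in control, and was not tested. The 2 bright probe sets also differed in how far apart they were: the log2 value of 1387348_at minus that of 1370960_at was −1.86 and −1.88 in PhIP, against −1.78 and −1.15 in control, so that this spacing was nearly the same in 3 arrays and narrower in control 2.

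**Figure D2:**
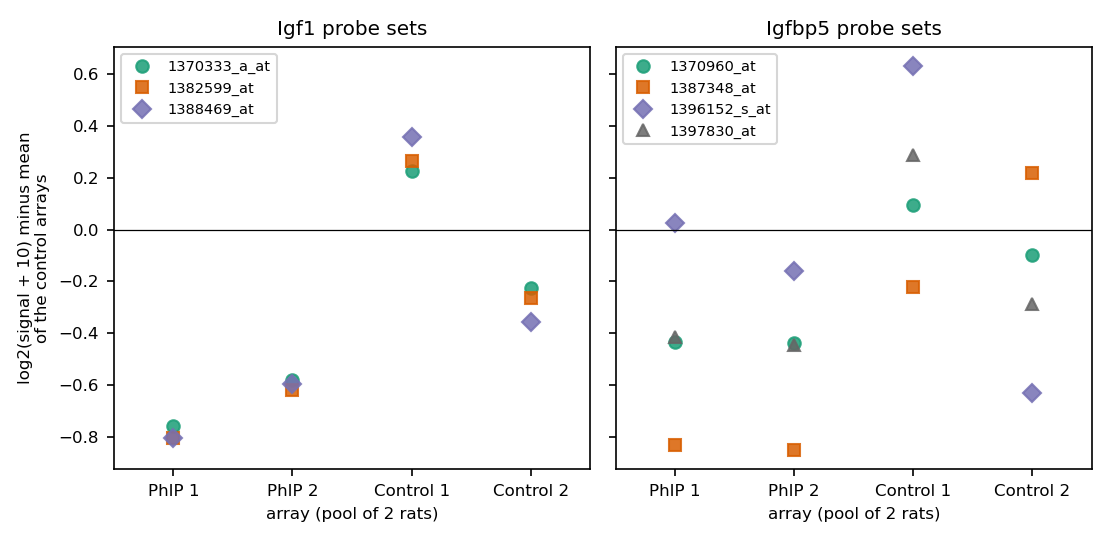
log2(signal + 10) of each tested probe set of Igf1 (left panel, 3 probe sets) and Igfbp5 (right panel, 4 probe sets) on each array, relative to the mean of its 2 control arrays (line at 0). The 3 Igf1 probe sets move together on every array, with control 1 highest; among the Igfbp5 probe sets, 1387348_at is highest in control 2 and the other 3 in control 1.

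Igfbp2, the genomic neighbour of Igfbp5, encodes a binding protein that circulates and is also made by prostate cells. It had 557.8 and 503.4 in PhIP, against 698.1 and 695.9 in control. The control pools nearly coincided, and both PhIP pools lay below them, with a log2 difference of −0.39 ± 0.10 (a ratio of 0.76; limma adjusted p = 0.186). The difference was −0.39 without control 1 (adjusted p = 0.0214), −0.39 without control 2 (adjusted p = 0.0538), −0.46 without PhIP 1 (adjusted p = 0.737) and −0.32 without PhIP 2 (adjusted p = 0.917).

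Igfbp6, which encodes a binding protein with a preference for the Igf2 product, had 2 probe sets of like size. Probe set 1372168_s_at, whose suffix also marks probes shared by more than 1 transcript, had 192.8 and 152.2 in PhIP, against 216.3 and 240.1 in control (−0.39 ± 0.15, limma adjusted p = 0.348). Probe set 1387625_at had 127.9 and 166.7 in PhIP, against 192 and 183.8 in control (−0.34 ± 0.16; limma adjusted p = 0.413). In both, the groups did not overlap, and the PhIP pools differed from each other in opposite order in the 2 probe sets. Without PhIP 1 the differences were −0.55 for 1372168_s_at and −0.16 for 1387625_at, and without PhIP 2 they were −0.23 and −0.52.

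Igfbp4, whose product is cleaved by the protease encoded by Pappa to release IGF, had 114.2 and 92.7 in PhIP, against 118.7 and 169.1 in control. PhIP 1 came close to control 1, and the log2 difference of −0.43 ± 0.20 had limma adjusted p = 0.413; it was −0.67 without control 1 (adjusted p = 0.0209) and −0.19 without control 2 (adjusted p = 0.653). Igfbp7, which encodes a low-affinity relative found in vessel walls and matrix, had 444.5 and 493.3 in PhIP, against 745.3 and 506.9 in control. PhIP 2 came close to control 2, and the log2 difference of −0.39 ± 0.17 (limma adjusted p = 0.403) was −0.11 without control 1 (adjusted p = 0.494) and −0.66 without control 2 (adjusted p = 0.00382). Each of these differences therefore rested mainly on 1 control pool, control 2 for Igfbp4 and control 1 for Igfbp7.

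Igfbp3, which encodes the main serum carrier of IGF, had 2 probe sets that gave different answers. Probe set 1367652_at had 81.3 and 48.9 in PhIP, against 78.7 and 54.9 in control. The groups overlapped fully and the log2 difference was −0.05 ± 0.26 (95% interval −0.65 to 0.55; limma adjusted p = 0.948). Probe set 1386881_at had 70.1 and 72.9 in PhIP, against 96.1 and 89.6 in control, lower without overlap (−0.34 ± 0.16; limma adjusted p = 0.415). An interval that reaches from −0.65 to 0.55 does not show that Igfbp3 was alike in the groups.

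**Figure D3:**
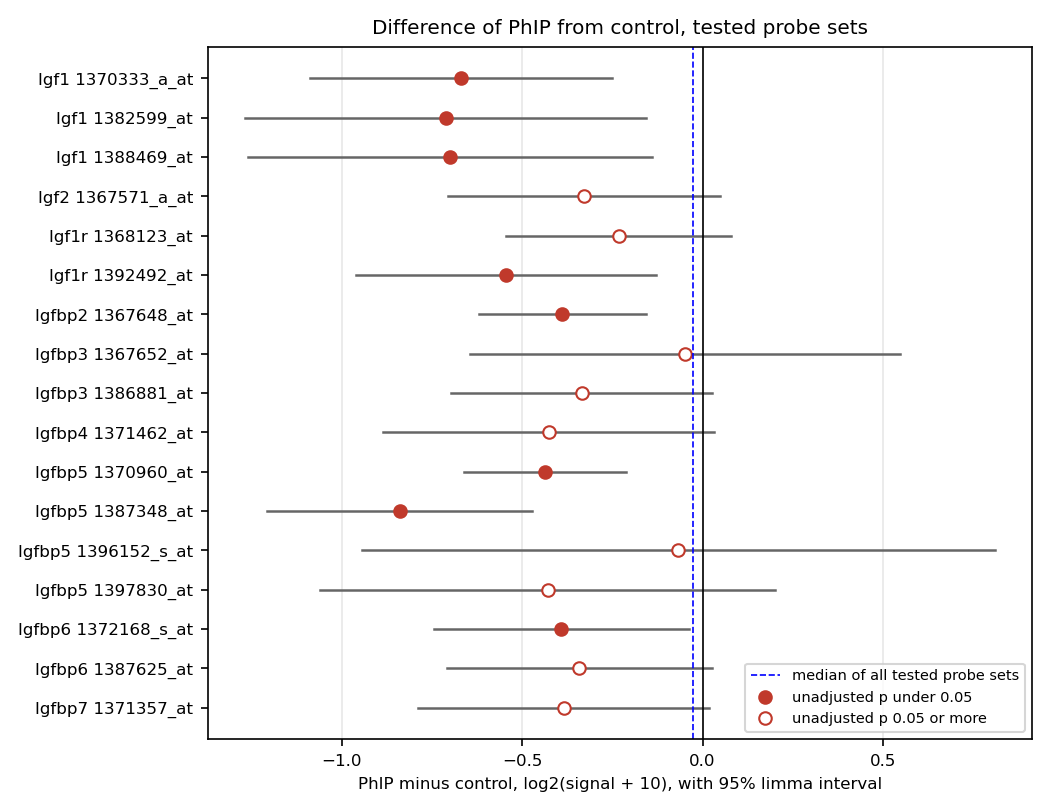
Difference of PhIP minus control in log2(signal + 10) for the 17 tested probe sets, with limma's 95% interval; filled points have an unadjusted p under 0.05, and the dashed line is the median of all tested probe sets (−0.03). All 17 points lie below 0, from −0.84 for Igfbp5 1387348_at to −0.05 for Igfbp3 1367652_at, and 8 intervals exclude 0.

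Other genes of the pathway had a median close to that of all tested probe sets. Of 49 listed genes outside the family (receptors, binding-protein proteases, signalling below the receptor, the growth hormone side, RNA-binding proteins of Igf2 and the CCN family), 43 were on the array and 31 were tested. None passed limma's adjusted p of 0.05; at an unadjusted p under 0.05, 4 were lower (7.61% of all tested probe sets) and 0 higher (5.36%), and the median difference was −0.09, against −0.03 over all tested probe sets. The groups did not overlap for 10 that were lower (26.0% of all tested probe sets) and 4 that were higher (19.8%). Among those 10, Htra1, Pik3ca, Insrr and Ccn3 had the lowest p. Htra1, which encodes a secreted serine protease known in humans to cleave the Igfbp5 product, had 38.1 and 36.2 in PhIP, against 65.2 and 61.4 in control (−0.64 ± 0.18; limma adjusted p = 0.221). Pik3ca, the catalytic subunit of the lipid kinase that relays receptor signals, had 672.2 and 752.3 in PhIP, against 863 and 986.9 in control (−0.37 ± 0.11; limma adjusted p = 0.232). The insulin receptor-related gene Insrr stood at −0.91 ± 0.28 and the CCN family gene Ccn3 at −0.60 ± 0.23, both with signals under 50 on every array.

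On the higher side, none of the 4 genes had an unadjusted p under 0.05. Ccn2, a matrix-associated member of the CCN family that shares the N-terminal domain of the IGF-binding proteins, had 1040.1 and 887.2 in PhIP, against 868.1 and 737.2 in control (0.26 ± 0.12; limma adjusted p = 0.406). Akt1, a kinase activated below the receptor, had 871.3 and 786.6 in PhIP, against 732.3 and 719.9 in control (0.19 ± 0.09; limma adjusted p = 0.450). Jak2 stood at 0.41 ± 0.26 and Foxo1 at 0.04 ± 0.11. Igf2r, which encodes the receptor that clears the Igf2 product, had 936 and 963.9 in PhIP, against 938.3 and 836 in control, with overlapping groups. Genes of the liver-based endocrine arm were near the bottom of the scale: the highest signal on any array was 2.7 for Igfbp1, 2.2 for Igfals and 6.4 for the growth hormone receptor gene Ghr.

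Markers of stromal cells also had lower signals in PhIP, though none passed limma's adjusted p of 0.05 (the lowest was 0.0517, for Acta2 and Actg2). Of all tested probe sets, 53.7% were lower and 7.61% were lower at an unadjusted p under 0.05. Of 10 smooth muscle markers, 10 were lower in PhIP and 8 had an unadjusted p under 0.05; their summed signal was 3819.2 and 3876.9 in PhIP, against 6246.4 and 6171.6 in control, with Acta2 at −0.84 ± 0.10 and Tagln at −0.47 ± 0.10. Of 10 fibroblast markers, 9 were lower and 8 had an unadjusted p under 0.05; their summed signal was 7367 and 7429.8 in PhIP, against 12428 and 9751.8 in control, with Col3a1 at −0.50 ± 0.10 and Col1a1 at −0.78 ± 0.14. The 1 fibroblast marker that was not lower was Thy1 (0.10 ± 0.19). Dcn, counted among the 9, stood at −0.09 ± 0.12 with overlapping groups. It had 1722.3 and 1740.5 in PhIP, against 2097.7 and 1627.2 in control. Thy1 and Dcn were named after their values were seen. None of these 20 markers was at 0 on any array. Luminal epithelial markers lay the other way: 1 of 9 was lower, 7 were higher without overlap (19.8% of all tested probe sets) and 5 were higher at an unadjusted p under 0.05 (5.36%), with Krt19 at 0.63 ± 0.12 and Cdh1 at 0.29 ± 0.07, named after their values were seen. Their summed signal was 22011.8 and 22040 in PhIP, against 20123.3 and 19131.4 in control, and the ventral prostate secretory genes Sbp and Pbsn had the highest signals of that list. Sbp stood at 0.25 ± 0.07. Pbsn was the luminal marker that was lower, at −0.06 ± 0.08 with overlapping groups. The part of these cells in the family's difference was not tested, and none of the 20 stromal markers is a member of the family.

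The median log2 value of the 20 stromal markers was 8.23 and 8.37 in PhIP, against 9.11 and 8.85 in control, a difference of −0.68. The 3 Igf1 probe sets, at −0.67, −0.70 and −0.71, lay close to it. Of the 14 tested probe sets of the other members, 13 had a difference less negative than that of the stromal median, as had 97.2% of all tested probe sets, and Igfbp5 1387348_at at −0.84 was the exception.

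**Figure D4:**
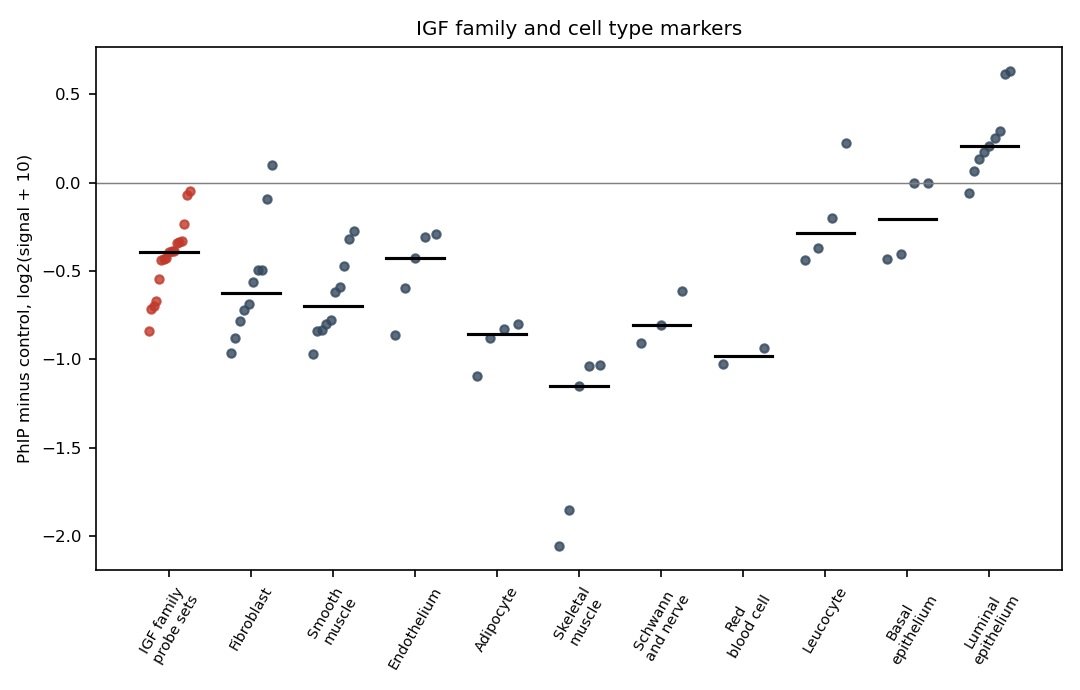
Log2 difference of PhIP minus control for the 17 tested IGF family probe sets (red) and for the tested markers of 10 cell type lists (dark), each point 1 probe set, with the median of each as a bar. The medians are −0.39 for the family, −0.62 for fibroblast, −0.70 for smooth muscle and 0.21 for luminal epithelial markers, the one list with a median above 0.

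Markers of most other cell types were lower as well, though none passed limma's adjusted p of 0.05. Of all tested probe sets, 53.7% were lower. Adipocyte markers were lower in 5 of 6 (Lep, the exception, was at 5.3 or less), with a summed signal of 112.5 and 208.7 in PhIP, against 378.4 and 265 in control. Control 1 was highest, as it was for the Igf1 probe sets and several others of the family. It was also highest for the summed fibroblast, smooth muscle and basal epithelial markers. Skeletal muscle markers, which can enter from tissue around the lobe, were lower in 5 of 5, with a summed signal of 495.9 and 416.4 in PhIP, against 903.9 and 1437.5 in control. In 4 of the 5 the groups did not overlap (26.0% of all tested probe sets were lower without overlap). Myl1 overlapped, at 4.5 and 9.1 in PhIP, against 5.2 and 305.6 in control. Ckm had 16.1 and 20.8 in PhIP, against 22.6 and 93.9 in control. The highest array of the skeletal muscle markers was control 2, as it was for Igfbp5 1387348_at, Igf2 1367571_a_at, Igf1r 1392492_at and 1368123_at, Igfbp4 and Igfbp6 1372168_s_at. Control 2 was also highest for the summed endothelial, leucocyte, Schwann and nerve, and red blood cell markers. Endothelial markers were lower in 5 of 5, with a summed signal of 158.4 and 151.3 in PhIP, against 225.2 and 248.7 in control. Schwann cell and nerve markers were lower in 3 of 3 (median −0.81) and red blood cell markers in 2 of 2 (median −0.98). All 5 had a limma unadjusted p under 0.05 (7.61% of all tested probe sets were lower at that level). The nerve and Schwann cell markers S100b and Gap43 were dim, with highest signals of 35.4 and 48.5 on any array. Basal epithelial markers had differences below 0 in 4 of 4 (median −0.20), but Krt5 and Krt15 both stood at −0.0016 with overlapping groups. Krt14 stood at −0.41 and Tp63 at −0.43. The summed basal signal overlapped, at 811.5 and 906.6 in PhIP, against 919.3 and 888.9 in control. Leucocyte markers were lower in 3 of 5 (median −0.28 over the 4 tested). The part of these cells in the family's values was not tested.

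The genes whose profile over the 4 arrays was closest to Igf1 1370333_a_at, by the Euclidean distance between mean-centred log2 values, were Col4a1 (0.03), Elovl6 (0.03), Car2 (0.05) and Nav1 (0.06). Col4a1, a basement membrane collagen, had 128.7 and 151.3 in PhIP, against 265.6 and 191.3 in control. Closest to Igfbp5 1370960_at were Ext1 (0.03), Lyve1 (0.03), Xkr4 (0.04) and Vps13b (0.04). Ext1 and Xkr4 were dim, with highest signals of 25.1 and 22.4 on any array. Lyve1, a marker of lymphatic endothelium and some macrophages, had 99.8 and 99.3 in PhIP, against 145.3 and 125.9 in control. These distances, taken among 10507 genes, describe 4 arrays.

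Facts of the arrays bear on all of these values. Across the tested probe sets, control 1 correlated less with control 2 (r = 0.972) than with PhIP 1 and PhIP 2 (0.980 and 0.979). Control 2 stood at 0.967 and 0.964 with PhIP 1 and PhIP 2, and the PhIP pools at 0.987 with each other. The authors' scaling gave every array the same trimmed mean, but the spiked-in hybridization controls were lower in PhIP (mean log2 signal 9.74 and 9.86, against 9.998 and 10.07 in control). When arrays were scaled to them the median of all tested probe sets moved to 0.18, the family's median became −0.17, and 2 of 17 probe sets, against 8, were lower at an unadjusted p under 0.05 (2.42% of all tested in that fit, against 7.61%). The gap between the family's median and that of all tested probe sets was −0.37 in the reported fit and −0.35 after this scaling. The 3′ to 5′ signal ratio of actin was highest in control 2 (5.71, against 4.18 in control 1 and 3.93 and 3.49 in PhIP), a sign of RNA quality; the part of this in the spread between probe sets of 1 gene was not tested. Leaving out control 1 or control 2 gave 5 of the 17 probe sets past the adjusted threshold, all lower (12.7% and 2.51% of all tested probe sets were called in these fits, whose spread rests on the PhIP pair alone), and leaving out PhIP 1 or PhIP 2 gave 0.

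**Figure D5:**
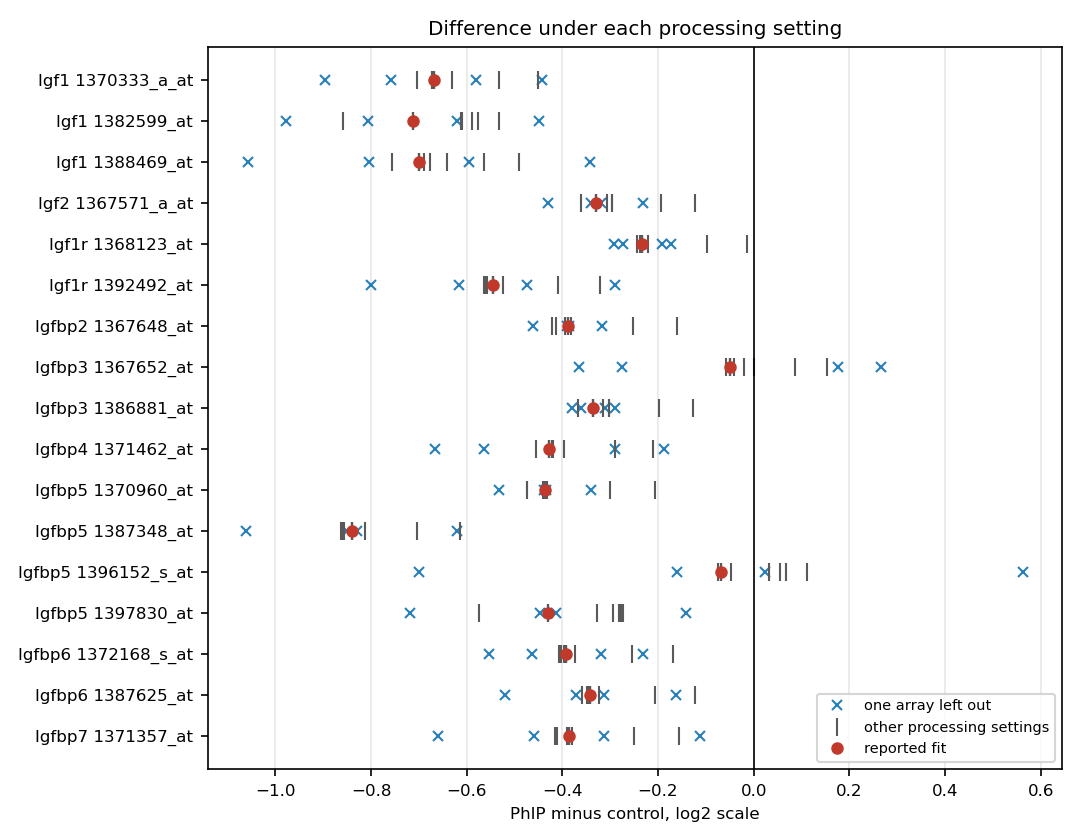
Log2 difference of PhIP minus control for each tested probe set in the reported fit (red circles), under other processing settings (grey bars) and with one array left out (blue crosses). For 15 of the 17 probe sets every value lies below 0; the exceptions are Igfbp3 1367652_at and Igfbp5 1396152_s_at, which lie on both sides.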

How the data were processed

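Gene expression was measured on Affymetrix rat arrays in 4 pools of 2 rats, 2 PhIP and 2 control. The deposited values are intensities (MAS5 signals on a linear scale), made by the authors with MAS5, per the submitters' processing notes; these state no version, and detection calls were not used here. The mean after trimming 2% at each end was 100.0 on every array. Precision is limited by the number of arrays.

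The 57 manufacturer control probe sets were left out of the fit. Of all probe sets, 20832 had 1 symbol, 436 several and 9831 none; all 9 members matched RefSeq genes of GRCr8 by Entrez identifier. log2(signal + 10) was fitted with limma 3.58.1 in R 4.3.3 (lmFit, eBayes with intensity trend, 2 residual and 5.67 prior degrees of freedom, two-sided, Benjamini-Hochberg over 18625 probe sets); steps were tested on simulated data. A gene outside the family was represented by its single-symbol probe set with the highest mean. All member probe sets were named; of the pathway list, up to 4 genes per direction with the lowest p and no overlap; up to 2 bright markers per list, from which Col1a1, Col3a1, Acta2, Tagln, Sbp and Pbsn are given; and the 4 closest profiles to Igf1 and Igfbp5. Motifs were searched with Python 3.11.15. The members, lists and tests were chosen with earlier results of these data known.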

Additional observations from a re-analysis of the deposited data

How the results depend on the processing

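With 2 pools a group, no probe set of the family passed the adjusted threshold in the reported fit, and the 11 settings that kept all arrays gave none either (lowest adjusted p 0.0768, with robust eBayes). Of 252 comparisons of a probe set with an alternative, 231 kept direction and call, 10 passed the adjusted threshold, all with a control pool left out and the spread taken from the PhIP pair alone, and 11 changed sign. The cause of these changes was not tested.

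The number of probe sets lower at an unadjusted p under 0.05 was 8 (7.61% of all tested); it was 5 after median centring (3.46% of all tested, whose median was 0.11), 2 after scaling to the hybridization controls (2.42%), and 4 to 11 with one array left out (3.76% to 14.6%). The number higher was 0 to 1 with one array left out, without any other change. With one array left out a group holds a lone pool, so counts past the adjusted threshold in those fits, for the family or the pathway genes, are not read as results. Over all probe sets, 5 passed in the reported fit, against 22 with an added constant of 20% of the trimmed mean (10% in the reported fit), 44 with the filter at the 60th percentile, 164 after scaling to the hybridization controls, 52 with robust eBayes, 35 with the replicate block, 3 after cyclic loess, and 0 with eBayes without trend, after median centring or quantile normalization, and with no filter; with one array left out the number was 0 to 2361.

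Igfbp3 1367652_at turned to 0.087 after median centring, 2.36e-05 after cyclic loess and 0.15 after scaling to the hybridization controls, and ranged from −0.37 to 0.27 with one array left out. Igfbp5 1396152_s_at turned to 0.054 after quantile normalization, 0.069 after median centring, 0.031 after cyclic loess and 0.11 after scaling to the hybridization controls, and ranged from −0.70 to 0.56 with one array left out. The labels number the pools 1 and 2 in both groups without saying that a number marks a shared batch, and same-numbered pools did not deviate together (r = −0.06 across tested probe sets). With the replicate block, 9 probe sets against 8 were lower at an unadjusted p under 0.05, and the lowest adjusted p of the family was 0.0954.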
